A study of Homo sapiens with 13 samples.

Results

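Of the 9370 PTBP1 peaks called on chromatin of MOLM-13 cells, 711 lay inside genes with their summit in an exon and overlapped no RUNX1 peak. The cells are a long-established line from a human acute myeloid leukemia, and the labels name no treatment or genetic change. PTBP1 and RUNX1 were mapped by CUT&Tag, which directs a transposase to the antibody-bound protein, and by CUT&RUN, which directs a nuclease there, in 2 biological replicates per protein and assay beside IgG and H3K27me3 libraries. The values below come from 1 deposited peak list for PTBP1 and 1 for RUNX1, which carry no replicate, and the spread between replicates is therefore unknown. The IgG and H3K27me3 libraries and the signal of each library were not analysed here.

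The 711 regions were selected on called peaks. Each was a PTBP1 peak that shared no base with a RUNX1 peak, overlapped a GENCODE version 44 gene and kept at least 1 kb between its edge and the annotated 5′ end of every gene, here called the transcription start site (TSS). Its summit, the base of highest fragment pileup, lay in an exon of any transcript. The remaining PTBP1-only peaks were 2053 at a TSS, 1397 in gene bodies with an intronic summit, 31 in gene bodies with a summit outside the gene and 568 between genes. Another 242 exonic gene-body PTBP1 peaks overlapped a RUNX1 peak and were not counted among the 711. "PTBP1-only" therefore describes 2 lists at the authors' threshold, not the absence of RUNX1 from these exons.

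PTBP1 is a splicing repressor of the hnRNP family that binds pyrimidine-rich RNA, often in introns beside the exons it regulates, and moves between nucleus and cytoplasm. Exons are the parts of a gene kept in mature RNA. Some start or end transcripts, some carry coding sequence and some lie in untranslated regions (UTRs). A long gene can hold internal promoters, so that the first exon of a shorter transcript lies deep inside the gene. RUNX1 is a transcription factor that recognises the DNA motif TGCGGT or TGTGGT and directs hematopoiesis.

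The strongest regions outside UTRs are shown first, because they span the kinds of exon in which the summits lay. Each sequence is the summit base with 50 bases either side, taken from hg38 and read 5′ to 3′ on the strand of the gene, with every CpG dinucleotide in capitals. The windows are NEAT1 chr11:65436311-65436411 and chr11:65430201-65430301 on the plus strand, TPPP chr5:677925-678025 and PEAK3 chr19:2275843-2275943 on the minus strand, and HEXD chr17:82437061-82437161 and DOT1L chr19:2226318-2226418 on the plus strand.

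NEAT1 window 1: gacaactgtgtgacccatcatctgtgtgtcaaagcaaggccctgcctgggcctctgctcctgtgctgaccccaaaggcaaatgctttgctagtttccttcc
NEAT1 window 2: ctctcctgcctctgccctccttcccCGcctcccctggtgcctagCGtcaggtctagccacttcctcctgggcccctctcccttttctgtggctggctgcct
TPPP window: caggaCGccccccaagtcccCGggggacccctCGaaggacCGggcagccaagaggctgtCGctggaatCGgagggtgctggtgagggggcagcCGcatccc
PEAK3 window: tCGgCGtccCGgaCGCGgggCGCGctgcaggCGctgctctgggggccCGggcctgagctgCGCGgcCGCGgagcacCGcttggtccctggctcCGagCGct
HEXD window: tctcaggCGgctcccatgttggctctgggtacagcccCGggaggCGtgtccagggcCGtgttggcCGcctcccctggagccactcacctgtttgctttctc
DOT1L window: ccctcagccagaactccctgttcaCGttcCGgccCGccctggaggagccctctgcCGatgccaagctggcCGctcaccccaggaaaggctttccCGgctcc

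CpG content differed widely among these strong regions. The strongest NEAT1 window held 0 CpG dinucleotides and the second held 2, while PEAK3 held 16 at a GC content of 80.2%. TPPP held 7, DOT1L held 6 and HEXD held 5.

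NEAT1, the long noncoding RNA that builds paraspeckles in the nucleus, carried the region of highest fold enrichment. Fold enrichment is the fragment pileup at the summit over the background, each with 1 added, and it was 36.6 there at a pileup of 62 fragments (chr11:65432466-65437071). A second NEAT1 region reached 29.1 with 49 fragments (chr11:65429428-65431554). Both lay entirely inside the single 22743-base exon of the canonical transcript, 7387 and 5468 bases from the nearest annotated gene 5′ end. RPL36, which encodes a protein of the large ribosomal subunit, ranked between them at 33.1 with 56 fragments (chr19:5689351-5691139). Its summit lay in exon 1 of 4, a 5′ UTR exon of 33 bases, and the canonical RPL36 transcript starts inside the peak. The nearest annotated gene 5′ end, that of HSD11B1L, lay 8747 bases from the peak, and RPL36 itself begins farther upstream, so the region counts as gene body.

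Coding exons held the regions in TPPP, PEAK3 and DOT1L. TPPP encodes a tubulin-binding protein that promotes microtubule assembly, and its exon 2 of 4 carried a region of 24.4-fold enrichment (chr5:677227-679290). PEAK3, which encodes a pseudokinase scaffold, had 22.7-fold enrichment in exon 4 of 4 (chr19:2274982-2276959). DOT1L, a histone H3 methyltransferase recruited by KMT2A fusion proteins in leukemia, had 21.5-fold enrichment with the summit in exon 27 of 28 (chr19:2225195-2230623).

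The strongest 3′ UTR regions were in TPPP, ACTB and PLEKHG4B. The last exon of TPPP carried a second region of 23.3-fold enrichment (chr5:662183-666976). ACTB, the gene of cytoplasmic beta-actin, had 18.0-fold enrichment in exon 6 of 6 (chr7:5525757-5527231), and PLEKHG4B had 17.4-fold enrichment in exon 20 of 20 (chr5:187738-189390).

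The strongest 5′ UTR regions sat on starts inside larger annotated genes. Beside RPL36, RDH13, a mitochondrial retinol dehydrogenase gene, reached 26.7-fold enrichment (chr19:55062150-55063433) and SAE1, which encodes a subunit of the SUMO-activating enzyme, reached 23.3-fold (chr19:47130420-47131276). The canonical transcripts of both genes start inside these peaks. In HDAC5, a class II histone deacetylase gene, the 21.5-fold region covered the first exon of a shorter transcript, 12026 bases from the canonical start (chr17:44110653-44111615). HEXD, a hexosaminidase gene, reached the same enrichment in a noncoding exon, exon 7 of 12 of a transcript that retains an intron (chr17:82435134-82438007).

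Most of the 711 regions were far weaker than these. Their fold enrichment ranged from 2.63 to 36.6 with a median of 9.88 (quartiles 8.14 and 11.6), and the median pileup was 16 fragments. The median was 9.30 for intronic PTBP1-only regions, 11.05 for PTBP1-only regions at a TSS and 14.5 for exonic gene-body peaks that overlapped RUNX1. These values come from the calls that chose the regions and are given without a test. The background was raised to more than 1.5 times its usual value at 27 of the 711 regions (3.80%), against 4.86% of all PTBP1 peaks. A raised background lowers the enrichment at a given pileup. TEDC1 had the lowest fold enrichment, 2.63, with the highest pileup, 296 fragments (chr14:105491081-105491682).

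**Figure D1:**
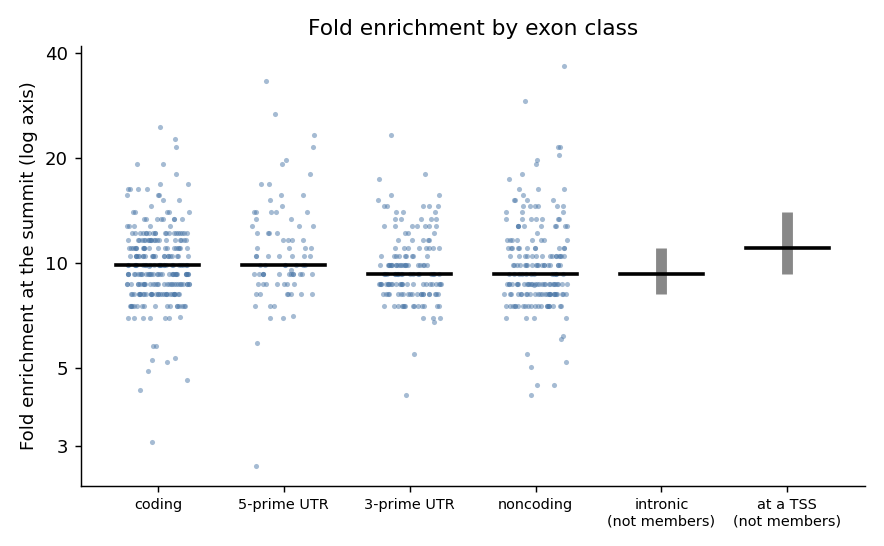
Fold enrichment at the summit (log axis) of each of the 711 regions, by exon class; each point is a region and the black line the median. The 2 groups at the right are not members and are shown by their median and quartiles (grey bar). The medians of the 4 classes lie between 9.30 and 9.88, and the points above 20 occur in every class.

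Of the PTBP1-only gene-body summits, 711 of 2108 lay in exons (33.7%, 95% Wilson interval 31.7 to 35.8). The share was 23.6% (242 of 1027) for PTBP1 gene-body peaks that overlapped RUNX1 and 12.5% (188 of 1508) for RUNX1-only gene-body peaks. Exons make up 7.40% of gene-body bases outside the 1 kb windows. Because an exonic summit is part of the rule, these shares are a description.

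Coding exons were the largest class, with 273 regions (38.4%), followed by 197 in noncoding exons (27.7%), 156 in 3′ UTRs (21.9%) and 85 in 5′ UTRs (11.96%). The class refers to the transcript to which the summit was assigned. By any transcript, 277 summits (39.0%) fell in coding sequence, which makes up 25.2% of the exonic bases described above. By rank, 264 summits lay in last exons, 254 in internal exons, 163 in first exons and 30 in transcripts of 1 exon. A canonical transcript of the host gene contained the exon in 455 cases, and 130 regions (18.3%) were exonic only through transcripts that retain an intron. Exons covered the whole peak at 309 regions and a median of 90% of its bases.

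Transcript starts inside genes lay close to many of the regions. In 412 of 711 (57.9%) a start of some annotated transcript lay within 1 kb, and in 232 it lay inside the peak. The share within 1 kb was 94.1% for 5′ UTR regions (80 of 85), 67.0% in noncoding exons, 58.2% in coding exons and 26.3% in 3′ UTRs. For intronic regions it was 34.6%, but transcript starts always lie in exons, so this difference is partly built into the rule. For the 242 exonic gene-body PTBP1 peaks that overlapped RUNX1 it was higher, 73.6%, and 64.5% of them held a start inside the peak. The canonical transcript of the host started within 1 kb in only 64 regions.

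**Figure D2:**
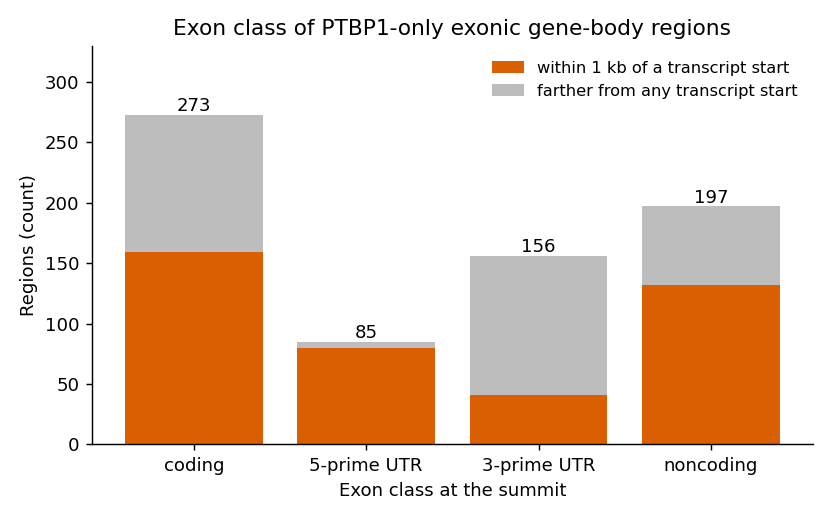
Number of regions by exon class at the summit, split by whether any annotated transcript starts within 1 kb of the peak. Of the 85 regions in 5′ UTRs 80 were near a start, against 41 of the 156 in 3′ UTRs.

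The summits were more frequent toward the 3′ ends of genes, but the position of exonic bases along the genes was not measured. The rule requires an exonic summit, and the exons holding the summits had a median length of 1812 bases for last and 200.5 for internal exons. The last 20% of the host gene held 297 summits (41.8%) and the first 20% held 56 (7.88%), where the 1 kb rule removes peaks. The last 10% alone held 196 (27.6%). The median position was 92.8% of the gene length for 3′ UTR regions, 72.3% for coding, 71.4% for noncoding and 32.0% for 5′ UTR regions.

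**Figure D3:**
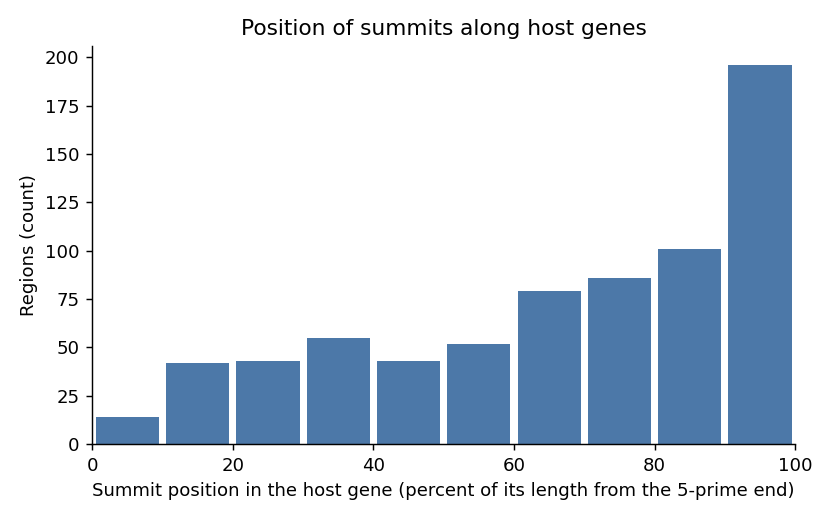
Number of the 711 summits in each 10% of the host gene length, counted from the 5′ end. The count is highest, 196, in the last 10%, and peaks within 1 kb of a gene start are absent by the rule.

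CpG content separated the 5′ UTR regions from the rest. A 201-base window around the summit was called CpG-rich when its GC content was at least 55% and its observed over expected CpG ratio at least 0.65, a measure chosen after the data were seen. Of the 85 windows in 5′ UTRs 50 were CpG-rich (58.8%), against 108 of the 626 others (17.3%). The odds ratio was 6.85 and the adjusted p was 7.04e-15 (two-sided Fisher's exact test, Benjamini-Hochberg over 4 added tests). The share was 25.6% in coding exons, 11.2% in noncoding exons and 10.3% in 3′ UTRs. Among all 711 regions 158 were CpG-rich (22.2%), more than the 129 of 1397 intronic regions (9.23%), with an odds ratio of 2.81 and an adjusted p of 5.71e-15 by the same exact test. Of all PTBP1 peaks 46.9% were CpG-rich, and of exonic gene-body PTBP1 peaks that overlapped RUNX1 53.3%. The CpG content of exons without a PTBP1 peak was not measured. Only 5 regions in 5′ UTRs lay farther than 1 kb from any transcript start, and among regions at that distance the 5′ UTR class had a difference of −19.7 percentage points from the others.

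The 5′ UTR regions also stood more alone. Another PTBP1 peak lay within 5 kb of 36 of these 85 regions (42.4%) and of 511 of the 626 others (81.6%), with an odds ratio of 0.165 and an adjusted p of 1.85e-13 (two-sided Fisher's exact test, of the same added family). Neighbouring regions can each count for the other, so they are not independent and this p-value overstates the evidence. Among regions farther than 1 kb from any transcript start the difference kept its sign, at −18.9 percentage points, without passing the test. The median gap to the next PTBP1 peak was 11034 bases for the 5′ UTR regions. It was 1260 bases in coding exons, 1162 in 3′ UTRs and 1326 in noncoding exons. Of PTBP1-only regions at a TSS, 61.2% were CpG-rich and 36.04% had another PTBP1 peak within 5 kb, a comparison that was not tested.

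**Figure D4:**
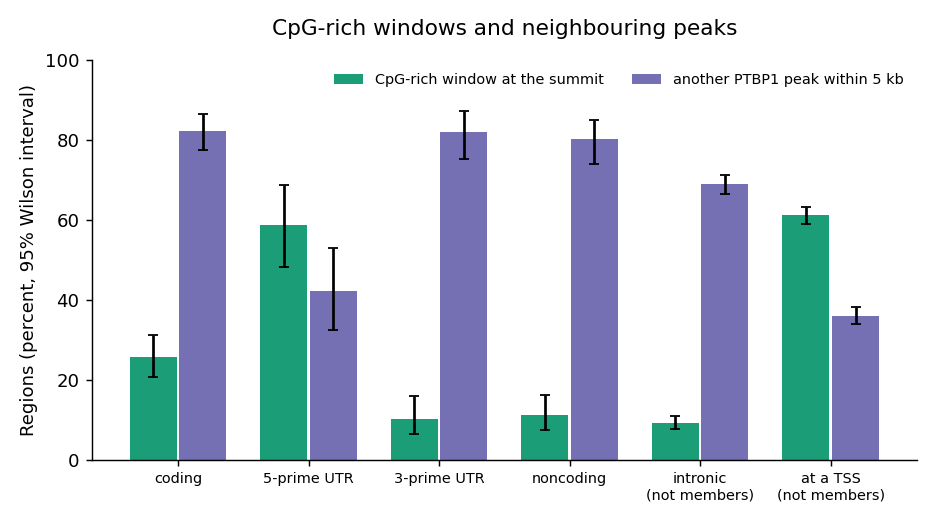
Percent of regions with a CpG-rich window at the summit (green) and with another PTBP1 peak within 5 kb (purple), by exon class, beside intronic and TSS regions that are not members; bars show 95% Wilson intervals, which cover counting error only. The 5′ UTR class has the highest CpG share of the 4 exon classes (58.8%) and the lowest share with a neighbour (42.4%).

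Sequence before a transcription start is shown for 3 regions that contain a RefSeq start inside a larger gene, the strongest whose upstream stretch holds little or no UTR sequence. RefSeq places 67 starts inside 62 of the 711 regions, and 396 host genes were matched to its promoter table (hg38) by symbol. Each sequence is the 100 bases before the RefSeq start, 5′ to 3′ on the minus strand, with CpG in capitals. They lie at chr11:62706316-62706415 for BSCL2, which encodes the lipid droplet protein seipin, chr12:53321611-53321710 for AAAS, which encodes the nuclear pore protein aladin, and chr16:28925239-28925338 for RABEP2, a regulator of endosome traffic.

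BSCL2: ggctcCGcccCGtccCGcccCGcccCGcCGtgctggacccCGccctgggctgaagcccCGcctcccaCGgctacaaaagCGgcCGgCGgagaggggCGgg
AAAS: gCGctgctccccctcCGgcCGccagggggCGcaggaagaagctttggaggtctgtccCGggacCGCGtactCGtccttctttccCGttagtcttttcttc
RABEP2: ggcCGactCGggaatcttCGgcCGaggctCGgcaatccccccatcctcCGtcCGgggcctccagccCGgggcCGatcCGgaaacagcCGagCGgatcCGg

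These stretches held 13, 9 and 13 CpG dinucleotides, at a GC content of 81%, 64% and 73%. The RefSeq start lay 54, 156 and 36 bases from the PTBP1 summit, and the fold enrichment of the 3 regions was 18.0, 16.3 and 16.3. Their summits lay in a 5′ UTR, a coding and a noncoding exon.

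The regions were unevenly spread over the genome. Chromosome 17 carried 128 (18.0%) and chromosome 19 carried 117 (16.5%), while these chromosomes hold 5.92% and 7.37% of protein-coding genes. They also carried 10.5% and 11.4% of all PTBP1 peaks and 11.2% and 13.7% of intronic regions, and the differences between these shares were not tested. Windows of 1 Mb with at least 50 PTBP1 peaks held 291 of the 711 regions (40.9%) and 40.4% of intronic regions. The share was lower, 17.9%, for PTBP1-only regions at a TSS. It was 11.6% for exonic gene-body PTBP1 peaks that overlapped RUNX1, and these shares were not tested. The 291 regions lay in 23 of the 222 windows that contained any of the 711. The window from 81 Mb of chromosome 17 had the most, 35 regions among 151 PTBP1 peaks, followed by the window from 1 Mb of chromosome 19 with 24 and that from 82 Mb of chromosome 17 with 23. Only 12.9% of the 5′ UTR regions lay in such windows, against 41.4% in coding exons, 45.5% in 3′ UTRs and 48.7% in noncoding exons.

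Several genes carried a row of exonic regions. The 711 regions lay in 553 host genes, of which 438 held 1 region, 115 held at least 2 and 7 held at least 4. ASPSCR1, whose product tethers glucose transporter vesicles, held 6 regions with fold enrichments of 8.72 to 11.6. Only 1 of these, in exon 13 of 17, was in coding sequence. FASN, the fatty acid synthase gene, held 5 regions of 8.14 to 13.4, in coding exons 6, 19, 23 and 34 of 43 and in the 3′ UTR of the last exon. BAHCC1, which encodes a chromatin protein with a BAH domain, held 5 regions of 7.56 to 10.5, with 3 in coding exons and 2 in the 3′ UTR. EXOC3, a subunit of the exocyst, held 4 regions of 10.5 to 14.5. BAIAP2, an adaptor of membrane and actin, and TMC6, a transmembrane channel-like gene, held 4 each, none above 12.2. ZNF687, a zinc finger gene, also held 4, of 8.14 to 9.30, and was named after its values were seen. Regions of 1 gene share a locus and are not independent.

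The hosts were mostly protein-coding genes, with 668 of 711 regions (94.0%), and 36 regions lay in lncRNA genes. Of 20033 protein-coding genes, 527 held a region, or 2.63%. Of these 527 hosts, 328 also had a PTBP1 peak at their TSS (62.2%), where the share over all protein-coding genes was 26.4%. A RUNX1 peak lay at the TSS of 217 hosts (41.2%), where the share over all was 21.3%. Neither protein had a TSS peak in 193 hosts. Where the host had a PTBP1 peak at its TSS, the exonic region was weaker than the strongest such peak in 370 of 436 cases (84.9%). The median fold enrichments were 9.88 and 21.8. These TSS peaks could overlap a RUNX1 peak, which the exonic regions by the rule could not.

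Hosts of exonic and of intronic regions did not differ detectably in the peaks at their start sites. Among genes that held only 1 of the 2 kinds, 58.2% of 330 exonic hosts and 56.0% of 634 intronic hosts had a PTBP1 peak at the TSS (adjusted p = 0.717, two-sided Fisher's exact test, Benjamini-Hochberg over the 8 planned comparisons). A RUNX1 peak at the TSS was found in 36.1% and 37.2% of them (adjusted p = 0.778, same exact test). The 95% Wilson intervals overlapped, at 52.8 to 63.4% and 52.1 to 59.8% for PTBP1 and at 31.1 to 41.4% and 33.5 to 41.1% for RUNX1, so small differences were not resolved at these numbers of genes.

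RUNX1 peaks lay near many of the regions although none overlapped. A RUNX1 peak lay within 5 kb of 255 of the 711 regions (35.9%, 95% Wilson interval 32.4 to 39.5) and of 419 of the 1397 intronic regions (30.0%, 27.6 to 32.4). The odds ratio was 1.31 and the adjusted p was 0.0265 (two-sided Fisher's exact test over regions). With 1 region per gene the difference was 5.60 percentage points with an adjusted p of 0.128, at the stricter peak threshold the adjusted p was 0.0726, without regions near a transcript start it was 0.0567 at 7.76 points, and within 1 kb the difference had the opposite sign, −1.30 points. Within 20 kb the difference was 9.70 points. The median distance to a TSS was 4542 bases for the 711 regions and 6662 for intronic regions, and the test was not adjusted for it. The median distance from the 711 regions to a RUNX1 peak was 8487 bases. The closest were DGKZ, a diacylglycerol kinase gene, at 43 bases, the lncRNA gene FAM201A at 55 bases and the zinc finger gene ZNF251 at 68 bases, with PTBP1 fold enrichments of 10.5, 9.88 and 9.88.

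The RUNX motif did not differ detectably in frequency from intronic regions or flanks. TGCGGT or TGTGGT, on either strand of that summit window, was present in 72 of 711 regions (10.1%, 95% Wilson interval 8.12 to 12.6), in 8.95% of intronic regions (7.56 to 10.6) and in 8.79% of all PTBP1 peaks. The difference from intronic regions was 1.18 percentage points (adjusted p = 0.616, two-sided Fisher's exact test). In flanks centred 500 bases to the left it was 8.30%. The motif was only at the summit in 69 regions and only in the flank in 56 (adjusted p = 0.566, two-sided exact sign test).

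Runs of at least 12 pyrimidines were counted because PTBP1 binds pyrimidine-rich RNA, but a run need not be a PTBP1 site. With both strands counted, such runs did not differ detectably in frequency from intronic regions or flanks either. They were present in 94 of the 711 windows (13.2%), in 14.03% of intronic windows (adjusted p = 0.731, two-sided Fisher's exact test) and in 14.7% of all PTBP1 windows. The share was 21.1% for exonic gene-body PTBP1 peaks that overlapped RUNX1, a comparison that was not tested. The flanks held a run in 15.5% of regions, with 75 only at the summit and 91 only in the flank (adjusted p = 0.566, two-sided exact sign test).

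The strand of the runs differed. Only the sense strand reads like the RNA of the gene, and 695 regions had hosts on 1 strand. Of these windows 61 had a run on the sense strand (8.78%) and 33 on the antisense strand (4.75%), with 60 on the sense strand alone and 32 on the antisense strand alone (adjusted p = 0.0265, two-sided exact sign test). In the flank to the left the counts on 1 strand alone were 59 and 48, in the flank to the right 55 and 49, and at intronic summits 95 and 90. The sense share of runs on 1 strand was 65.2% (60 of 92) at exonic and 51.4% (95 of 185) at intronic summits, with an adjusted p of 0.0298 by a two-sided Fisher's exact test added after the data were seen. With 1 region per gene the adjusted p was 0.123 for the sense excess and 0.142 for the sense share against intronic summits, and at the stricter peak threshold it was 0.0560 and 0.103, so neither call held under these exact tests.

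**Figure D5:**
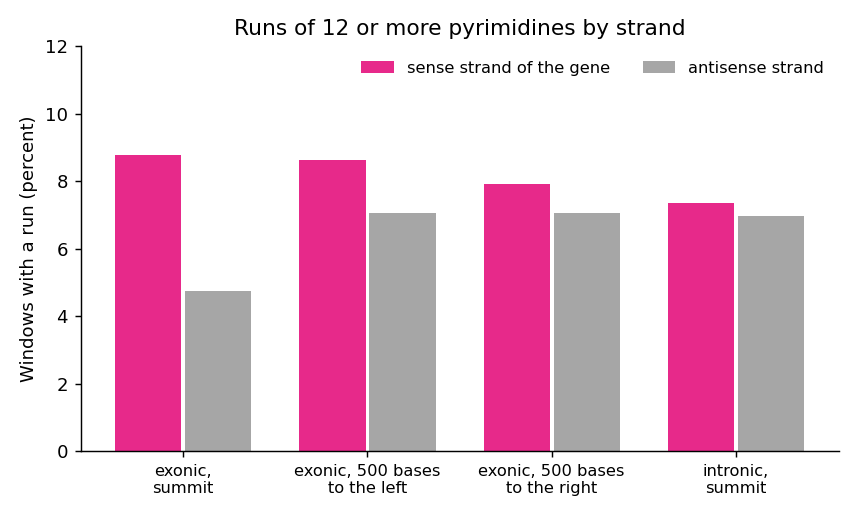
Percent of summit or flank windows (50 bases either side of their centre) with a run of at least 12 pyrimidines on the sense or antisense strand of the gene, at exonic summits and their flanks (695 regions) and at intronic summits (1318 regions). Sense and antisense differ most at exonic summits, 8.78% against 4.75%.

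By exon class, runs on the sense strand alone and the antisense strand alone numbered 23 and 8 in coding exons, 18 and 7 in 3′ UTRs, 7 and 3 in 5′ UTRs and 12 and 14 in noncoding exons. Of the 61 regions with a sense run, the longest run lay inside the exon in 46, in the intron before it in 12 and after it in 3. Of the 33 with an antisense run it lay inside the exon in 30, across its edge in 2 and in the intron before it in 1. How far the runs lay from the ends of exons was not measured. The exon is that of the transcript to which the summit was assigned, which in some regions retains an intron. Runs counted as inside the exon can therefore be intronic in other transcripts, and their number was not counted. The strand composition of exons without a PTBP1 peak was not measured.

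Summit windows with a sense run are shown for the strongest further regions outside UTRs, with the pyrimidine run in capitals. They read 5′ to 3′ on the strand of the gene, in hg38, at chr19:1399540-1399640 for GAMT, a creatine synthesis enzyme (minus strand), chr1:40415301-40415401 for SMAP2, a regulator of Arf GTPases (plus strand), chr17:82049101-82049201 for RFNG, a glycosyltransferase of the Notch pathway (minus strand), and chr19:48969775-48969875 for GYS1, muscle glycogen synthase (minus strand).

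GAMT: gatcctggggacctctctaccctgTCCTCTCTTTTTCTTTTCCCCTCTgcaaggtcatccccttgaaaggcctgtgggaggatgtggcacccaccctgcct
SMAP2: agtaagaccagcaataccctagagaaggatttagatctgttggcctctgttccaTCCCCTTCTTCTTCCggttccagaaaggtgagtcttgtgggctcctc
RFNG: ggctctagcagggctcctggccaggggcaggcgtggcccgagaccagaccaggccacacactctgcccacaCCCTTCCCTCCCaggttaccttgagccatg
GYS1: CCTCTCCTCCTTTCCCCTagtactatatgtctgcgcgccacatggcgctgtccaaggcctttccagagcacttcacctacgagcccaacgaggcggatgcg

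The runs were 24, 15, 12 and 18 bases long. In GYS1 the run lay outside the exon, which here is exon 15 of 16, while in the other regions it lay inside. For GAMT and RFNG that exon belongs to a transcript that retains an intron. Whether their runs are intronic in other transcripts was not measured. The second NEAT1 window above also held a sense run, of 16 bases.

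Gene groups related to the study are given as counts without a test, each beside the 2.63% of all protein-coding genes that held a region. Among zinc finger genes 14 of 508 held a region (2.76%), led by ZNF451 at 14.5-fold, ZNF276 and ZNF580 at 11.05. Of 86 cytosolic ribosomal protein genes 2 held a region (2.33%), RPL36 and RPL18, the latter at 7.56-fold. Of 38 hnRNP and SR splicing factor genes 1 did (2.63%), HNRNPF, at 8.14-fold in a 5′ UTR. No region was found in 73 replication-dependent histone genes, 72 heat shock protein genes, 39 HOX genes or 28 histone lysine methyltransferase and demethylase genes with KMT or KDM symbols. At a share of 2.63% lists of this length would hold few such genes, so these zeros are not read as a difference.

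Of 23 glycolysis genes 2 held regions (8.70%). PFKL, the liver-type phosphofructokinase gene, had 2 regions in coding exons 13 and 19 of 22, with fold enrichments of 8.72 and 11.05. SLC16A3, which encodes a lactate exporter, had 1 in its 3′ UTR at 5.48-fold, with 37 fragments and a raised background. Of 26 hematopoietic regulator genes 1 held regions (3.85%), GFI1, a transcriptional repressor of myeloid differentiation. It had 10.5-fold enrichment in exon 4 of 7 (chr1:92480361-92481180) and 9.30-fold in exon 2 of 7 (chr1:92483421-92484142). No exonic region lay in PKM, HK2, ID1, SLC2A1, PTBP1, PTBP2 or RUNX1. As a check of the labelled cell type, 0 of 10 myeloid or progenitor markers and 0 of 6 markers of other cells had a PTBP1 or RUNX1 peak at the TSS, so the lists do not bear on it.

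The regions next to the 1 kb limit are given as a description. Just beyond it lay regions in CUTA at 1001 bases from a TSS (13.4-fold), in the lncRNA gene ENSG00000264548 at 1006 bases (4.47-fold, with a raised background) and in PACS2 at 1007 bases (9.30-fold). Just within it, and therefore left out, lay exonic peaks in ATN1 at 999 bases (14.5-fold), POLR2E at 993 bases (9.30-fold) and DDX39A at 983 bases (9.88-fold).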

How the data were processed

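Reads were mapped by the authors to hg38 with Bowtie2, filtered on mapping quality and duplicates, and passed to MACS3 for peak calling (q-value threshold 1e-07). The deposited lists name the protein alone and were taken as CUT&Tag, and pooling of replicates is not given in the sources used here. The deposited fold enrichment is a ratio of summit pileup to background, the deposited −log10 p-value and −log10 q-value come from a Poisson model, and the deposited score is the truncated −log10 q-value after multiplication by 10. Pileup and background were solved from the deposited ratio and −log10 p-value (largest miss 0.00134). Fragment totals were not used, so depth enters only through these pileups.

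Peaks were placed on GENCODE version 44 genes and exons, and sequence was read from hg38. The class of an exon and its number refer to 1 transcript per summit. Shares were compared with two-sided Fisher's exact tests or exact sign tests and Benjamini-Hochberg adjustment, over 8 planned and 4 added comparisons. Tests run over neighbouring regions of 2 lists, and their p-values carry no variation between cultures. The regions and gene lists were chosen with earlier results of these data known. Named regions were the 10 of highest fold enrichment, the 3 highest of each exon class, those of the genes with the most regions (up to 6 genes), the 3 nearest to either side of the 1 kb limit, the 3 nearest to RUNX1, and up to 3 per gene list. The procedures were tested on simulated data in which regions were drawn independently, so the p-values were not checked for neighbouring regions. Software was pysam 0.24.0, scipy 1.17.1, matplotlib 3.10.9, pandas 2.3.3, numpy 2.4.6 and Python 3.11.15.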

Additional observations from a re-analysis of the deposited data

How the results depend on the processing

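Of 92 alternatives, 74 left the direction and the call as reported or the number of regions within 1.5 times 711, 8 lost the call, 8 turned the direction and 2 moved the number of regions further. Values here are differences in percentage points unless named otherwise. The sense excess of pyrimidine runs was 3.67 with 1 region per gene and 3.69 at a −log10 q of at least 10, and the sense share against intronic summits was 11.6 and 11.3, all without a call. The difference in RUNX1 peaks within 5 kb lost its call with 1 region per gene (5.60), at the stricter threshold (5.45) and without regions within 1 kb of a transcript start (7.76), and was −1.30 within 1 kb. Without regions near a transcript start, only 5 regions in 5′ UTRs remained: their difference in CpG-rich windows was −19.7 and that in neighbouring PTBP1 peaks −18.9, without a call. Differences with no call in the report changed sign for the RUNX motif between exonic and intronic windows (−0.338 with TGTGGT alone, −2.87 at a GC content of 45 to 60%), pyrimidine runs (4.86 at that GC content), PTBP1 at host start sites (−0.531 without regions exonic only through retained introns) and RUNX1 there (0.0286 at the stricter threshold, 1.08 without regions near a transcript start). The number of regions was 459 with canonical exons only and 299 when peaks within 1 kb of any transcript start were left out, and 581 to 707 under the other 4 alternatives. The cause of these changes was not tested, beyond the fewer regions that a stricter rule leaves. The tests on host genes have no alternative with 1 region per gene. The alternatives that leave out regions near a transcript start or in retained introns, and all alternatives of the 4 added tests, were chosen after seeing the data. No paired analysis was possible because the lists hold no values per replicate, and no replicate could be left out for the same reason.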
